A study of Homo sapiens with 26 samples.

Results

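The genes described here are 10 genes of Wnt feedback and of Wnt-dependent stem cells: the ligands WNT7A and WNT7B, the receptors LGR4 and LGR5, the secreted antagonists DKK1 and SOSTDC1, the intracellular and membrane inhibitors AXIN2, NKD1 and ZNRF3, and the transcription factor ASCL2. They were taken as the Ensembl identifiers that map to these symbols, and all 10 were found in each of the 3 count tables, out of 62778 identifiers in any table. WNT7A and ASCL2 in ASPC1, SOSTDC1, WNT7A and ASCL2 in Panc10.05, and LGR5 in Panc10.05 and BxPC3 were at or near 0 counts, so each line shows a different subset.

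Wnt ligands are secreted proteins that bind Frizzled receptors and an LRP co-receptor. Binding stops the destruction complex, which is built on the AXIN scaffolds, from degrading beta-catenin, and beta-catenin then acts on genes together with TCF and LEF factors. Among the genes switched on are inhibitors of the pathway itself, such as AXIN2, NKD1, ZNRF3 and DKK1, and in the intestine the stem cell genes LGR5 and ASCL2. R-spondins, through LGR4 and LGR5, counter the removal of Frizzled receptors by ZNRF3 and its relative RNF43. In pancreatic ductal adenocarcinoma, cell lines differ in how far they depend on ligands for this pathway.

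Poly(A) RNA was sequenced in 3 established human pancreatic ductal adenocarcinoma lines, Panc10.05, BxPC3 and ASPC1, to compare the isoforms of HNF4α. HNF4α is a nuclear receptor of liver, gut and pancreas whose gene, HNF4A, is read from a P1 and a P2 promoter. Panc10.05 and BxPC3 received doxycycline in every group, the controls included, to switch on an inducible construct: P1-a2, P2-a8 or the control labelled NC, with 2 libraries per group. The NC construct is named GFP in the Panc10.05 titles and EV in those of BxPC3. Every BxPC3 group had a dose of 500 ng/mL. Panc10.05 cells had 25 ng/mL with P1-a2 or NC but 12.5 ng/mL with P2-a8, which ties dose to isoform in that line. ASPC1 carried CRISPR interference, in which an inactive Cas9 led by a guide RNA lowers transcription at a promoter. Its guides were sgP1E and sgP1J (sgP1), sgP2D and sgP2G (sgP2), sgDual2 and sgDual3 (sgDual, against both isoforms) and the control guide sgNC, with 2 libraries per guide, hence 4 per target and 2 for sgNC. No label says whether cells were clones or whether replicates came from separate cultures. The p-values thus measure only the spread between these libraries, which within a guide or an induced group may be technical. In the main ASPC1 tests the 4 libraries of a target were fitted together as a group. Their spread therefore also holds differences between the guides, and the 4 are not replicates of the same guide. In bulk RNA, fewer cells that express a gene and less RNA per cell cannot be told apart.

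The libraries of ASPC1 held 26079388 to 50662077 counts, those of BxPC3 26369154 to 37483772 and those of Panc10.05 34618745 to 46827673. Levels are CPM, that is counts relative to the depth of the library, after TMM scaling within each line. HNF4A went from a mean of 0.149 CPM in NC to 11.8 under P1-a2 and 37.6 under P2-a8 in Panc10.05, and from 0.771 to 10.7 and 13.4 in BxPC3, so the arms also differ in the amount of HNF4A. In ASPC1 it was at 206 and 220 CPM with sgNC, at 60.8% of that mean with sgP1, 40.6% with sgP2 and 3.76% with sgDual. The reductions with sgP1 (adjusted p 0.615) and sgP2 (adjusted p 0.0751) did not pass the threshold of an adjusted p under 0.05 in edgeR's quasi-likelihood test, whereas that with sgDual did (adjusted p 6.25e-06). Every sgP1 library (108.9 to 145.5 CPM) and every sgP2 library (76.75 to 93.85 CPM) was nevertheless below both sgNC libraries. The test shares its spread over the groups, and the sgDual libraries ran from 3.19 to 13.6 CPM. For sgP2 the adjusted p was 0.036 by DESeq2, 0.0382 with 7 groups by guide and 0.000223 when only the compared libraries were fitted. Counts per gene do not separate P1 from P2 transcripts. Epithelial markers were high in every line (KRT8 from 1570 to 9182 CPM), apart from KRT7 (0.503 to 8.47 CPM) and, less so, CDH1 (13.3 to 77.3 CPM) in ASPC1. PTPRC, a leukocyte gene, was at 0.137 CPM or less and DCN, a fibroblast gene, at 0.543 CPM or less. Other genes of these lists were higher. The fibroblast gene COL1A1 was at 4.26 to 6.99 CPM in Panc10.05 and 10.48 to 12 CPM in BxPC3. The leukocyte gene CD68 reached 9.35 CPM in Panc10.05, and the endothelial genes VWF and CDH5 reached 4.12 and 5.245 CPM in BxPC3. Per library, the summed level of 4 fibroblast genes stayed between 0.634 and 12.5 CPM, that of 3 leukocyte genes between 1.26 and 9.37 and that of 3 endothelial genes between 0.258 and 9.12.

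RefSeq promoter entries of GRCh38.p14 were found for 3 of the genes, LGR4, DKK1 and WNT7A. The 250 bases before the start of DKK1 and LGR4 are printed because these genes changed in both induced lines. Both run 5′ to 3′ along the strand of the gene. They lie at chr10:52314031-52314280 (plus strand) and chr11:27472791-27473040 (minus strand). Capitals mark, in DKK1, TCAAAG, its reverse complement CTTTGA and TATAAA, and in LGR4, CCAAT.
DKK1: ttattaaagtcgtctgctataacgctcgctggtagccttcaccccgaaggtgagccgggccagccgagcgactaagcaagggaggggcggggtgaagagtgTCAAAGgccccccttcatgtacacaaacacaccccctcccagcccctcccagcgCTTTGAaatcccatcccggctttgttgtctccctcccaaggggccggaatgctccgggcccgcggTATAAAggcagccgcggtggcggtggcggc
LGR4: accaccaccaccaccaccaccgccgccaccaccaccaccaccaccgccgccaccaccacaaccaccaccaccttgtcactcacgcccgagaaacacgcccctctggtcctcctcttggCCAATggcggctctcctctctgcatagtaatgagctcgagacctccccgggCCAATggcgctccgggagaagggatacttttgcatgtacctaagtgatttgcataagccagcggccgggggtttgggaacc
TCAAAG is a short form of the core that TCF and LEF factors read. It stands 149 bases before the DKK1 start as written and 95 bases before it on the other strand, and TATAAA stands 30 bases before it. LGR4 holds CCAAT at 132 and at 81 bases before its start. Searched on both strands, 12.9% of the table's 35116 promoters hold TCAAAG, 11.5% hold TATAAA and 34.6% hold CCAAT. The longer core ATCAAAG, within which TCAAAG lies, is held by 2.62% of promoters, the HNF4 core CAAAGTCCA by 0.384% and its looser form CAAAGNNCA by 5.28%. None of these 3 was found in the windows of DKK1, LGR4 or WNT7A, which says only that these letters are not there. WNT7A held none of the motifs searched.

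Within a line, the genes can be ranked by CPM per kilobase of exon (GENCODE v29 exon lengths), and DKK1 led in all 3 controls. In sgNC cells of ASPC1 the mean levels per kilobase were 112 for DKK1, 46.7 for LGR4, 20.2 for WNT7B and 7.84 for LGR5. ZNRF3 (1.72) and AXIN2 (1.41) followed and overlapped between libraries, with SOSTDC1 (0.781) and NKD1 (0.0375) lowest. In NC cells of Panc10.05 the order was DKK1 (148), WNT7B (9.40), LGR4 (4.52) and ZNRF3 (1.51), with AXIN2 (0.0387) and NKD1 (0.0265) overlapping far below. In NC cells of BxPC3 it was DKK1 (79.7), LGR4 (23.3) and WNT7B (21.7), which overlapped, then WNT7A (10.6), ASCL2 (2.81) and ZNRF3 (1.93), with SOSTDC1, AXIN2 and NKD1 at 0.0672 or less. WNT7A and ASCL2 were thus read in BxPC3 alone, and LGR5, SOSTDC1 and AXIN2 at levels that could be tested in ASPC1 alone.

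Across arms, HNF4A induction went with lower DKK1, WNT7B and LGR4 in P1-a2 cells of both induced lines, and sgDual in ASPC1 went with higher SOSTDC1, NKD1, LGR5, WNT7B and DKK1. A filter on low counts left 5 of the 10 genes for testing in Panc10.05, 6 in BxPC3 and 8 in ASPC1. The counts are read against the share of all tested genes that passed the same threshold. That share was computed for the main tests only, so counts under any other setting stand without a background. The genes were chosen with earlier results of these data known. A count or median beyond that of all genes is thus a description and not independent evidence of a Wnt response. In Panc10.05, where 17247 genes were tested, 3 of 5 were lower under P1-a2 than in NC, and over all genes 62.0% were called, 31.5% higher and 30.5% lower. Under P2-a8 against NC, 1 was higher and 2 were lower, with 46.2% of all genes called (23.7% higher, 22.5% lower). P1-a2 against P2-a8 gave 3 lower, with 46.9% called (22.2% higher, 24.7% lower). In either direction, 3 of 5 is near the background of P1-a2 against NC (62.0%) and above that of P2-a8 against NC (46.2%) and P1-a2 against P2-a8 (46.9%). Where all 3 were lower, the background of lower genes alone was 30.5% against NC and 24.7% against P2-a8. With so few genes, these counts do not settle whether they exceed the background. In BxPC3 (17635 genes tested) 3 of 6 were lower under P1-a2 than in NC (32.0% called, 17.1% higher, 14.9% lower), 1 was lower under P2-a8 (6.99% called, 4.30% higher, 2.69% lower), and P1-a2 against P2-a8 gave 2 lower (22.5% called, 11.6% higher, 10.8% lower).

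In ASPC1 (16992 genes tested) edgeR called 0 of 8 with sgP1 against sgNC, where 0.265% of all genes were called (0.100% higher, 0.165% lower). At an unadjusted p under 0.05 it was 2, and DESeq2 called 1. With sgP2 against sgNC, 2 of 8 were lower (3.42% called, 1.66% higher, 1.76% lower). With sgDual against sgNC, 5 of 8 were higher (35.6% called, 17.8% higher, 17.8% lower). sgP2 against sgP1 gave 4 lower (4.30% called, 2.17% higher, 2.13% lower), sgDual against sgP1 gave 4 higher (38.3% called, 18.6% higher, 19.7% lower), and sgDual against sgP2 gave 5 higher (46.4% called, 22.8% higher, 23.5% lower). The median log2 fold change of the 8 tested was 0.26 with sgP1, -0.24 with sgP2 and 0.73 with sgDual against sgNC, beside 0.01, 0.001 and 0.001 over all tested genes. It was -0.71 for sgP2 against sgP1, 0.43 for sgDual against sgP1 and 1.17 for sgDual against sgP2, beside -0.005, -0.01 and -0.01. In the induced lines the medians against NC were -0.63 and -0.25 in Panc10.05 and -0.44 and -0.15 in BxPC3, for P1-a2 and P2-a8 in that order, beside 0.02, 0.001, -0.01 and 0.01 over all tested genes. Between the isoforms it was -0.25 in Panc10.05 and -0.27 in BxPC3, beside -0.002 and -0.01. The arms of a line share their control libraries, so these comparisons are not independent of each other.

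**Figure D1:**
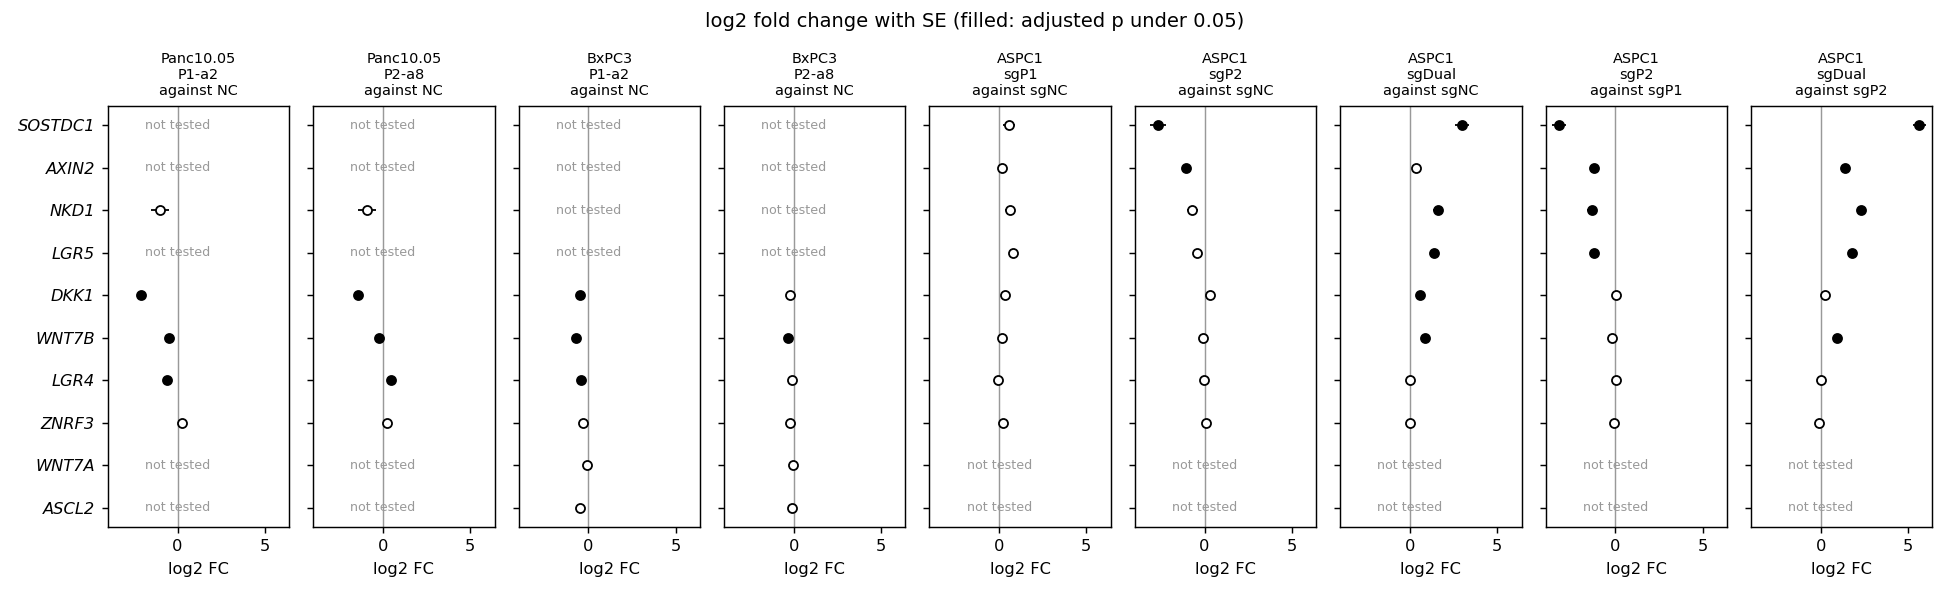
Log2 fold change (points) with its standard error (bars) for the 10 genes in 9 comparisons, filled where the adjusted p was under 0.05, and left out where the gene was not tested. DKK1 reaches -2.10 in Panc10.05 under P1-a2, and SOSTDC1 runs from -2.68 with sgP2 to 2.98 with sgDual in ASPC1.

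WNT7B (ENSG00000188064, chr22:45920362-45977129, minus strand) encodes a Wnt ligand and was the only tested ligand of the set that changed: it was lower wherever HNF4A was induced and higher with sgDual. In Panc10.05 it was at 47.2 and 47.7 CPM in NC, 34.0 and 32.9 under P1-a2, and 39.2 and 40.5 under P2-a8. All 3 groups stood apart, with NC highest and P1-a2 lowest. The log2 fold change against NC was -0.51 for P1-a2 (SE 0.071, adjusted p 5.43e-08) and -0.25 for P2-a8 (SE 0.071, adjusted p 0.00301), and P1-a2 was below P2-a8 by -0.25 (adjusted p 0.00321). BxPC3 gave the same order, with 103.9 and 114.9 CPM in NC, 68.6 and 68.2 under P1-a2, and 80.9 and 91.3 under P2-a8. There the log2 fold changes were -0.68 for P1-a2 (SE 0.073, adjusted p 3.97e-05) and -0.35 for P2-a8 (SE 0.072, adjusted p 0.0143). P1-a2 was lower than P2-a8 by -0.33 in BxPC3 (adjusted p 0.00756). The P2-a8 call rested on single libraries, since its adjusted p was 0.0702 without P2-a8 replicate 1 and 0.129 without NC replicate 2, and the call of P1-a2 against P2-a8 was lost without P2-a8 replicate 2 (adjusted p 0.0783).

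In ASPC1, WNT7B was at 107.5 and 96.1 CPM with sgNC, at 128.5 and 133.5 with sgP1E, at 105.5 and 85.7 with sgP1J, and between 94.0 and 101.1 with the sgP2 guides. It was at 173.3 and 170.9 CPM with sgDual2 and 205.8 and 198.5 with sgDual3, above every other library of the line. WNT7B rose with sgDual by 0.88 on the log2 scale against sgNC (SE 0.14, adjusted p 0.000343), 0.72 against sgP1 (SE 0.11, adjusted p 0.000207) and 0.94 against sgP2 (SE 0.11, adjusted p 1.3e-05). Against sgNC, neither sgP1 (0.16, adjusted p 0.833) nor sgP2 (-0.06) passed. The sgP1 guides differed from each other, with sgP1E above sgP1J by 0.45 (SE 0.090, adjusted p 0.00423). With sgP1E alone as the sgP1 arm, WNT7B was higher than with sgNC by 0.36 (adjusted p 0.03) and sgP2 was lower than sgP1 by -0.42 (adjusted p 0.00667).

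WNT7A (ENSG00000154764, chr3:13816258-13880121, minus strand), a ligand closely related to WNT7B, was read in BxPC3 and had 0 counts in every library of the other lines. Its BxPC3 levels were 45.5 and 51.7 CPM in NC, 45.2 and 48.7 under P1-a2, and 42.8 and 51.5 under P2-a8. The 3 groups overlapped, and the log2 fold change against NC was -0.05 for both P1-a2 (SE 0.096, adjusted p 0.726) and P2-a8 (adjusted p 0.844). Within BxPC3 the WNT7 ligands thus differed, WNT7B being lower under P1-a2 while the change of WNT7A was smaller than its error, though the difference between the genes was not tested.

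**Figure D2:**
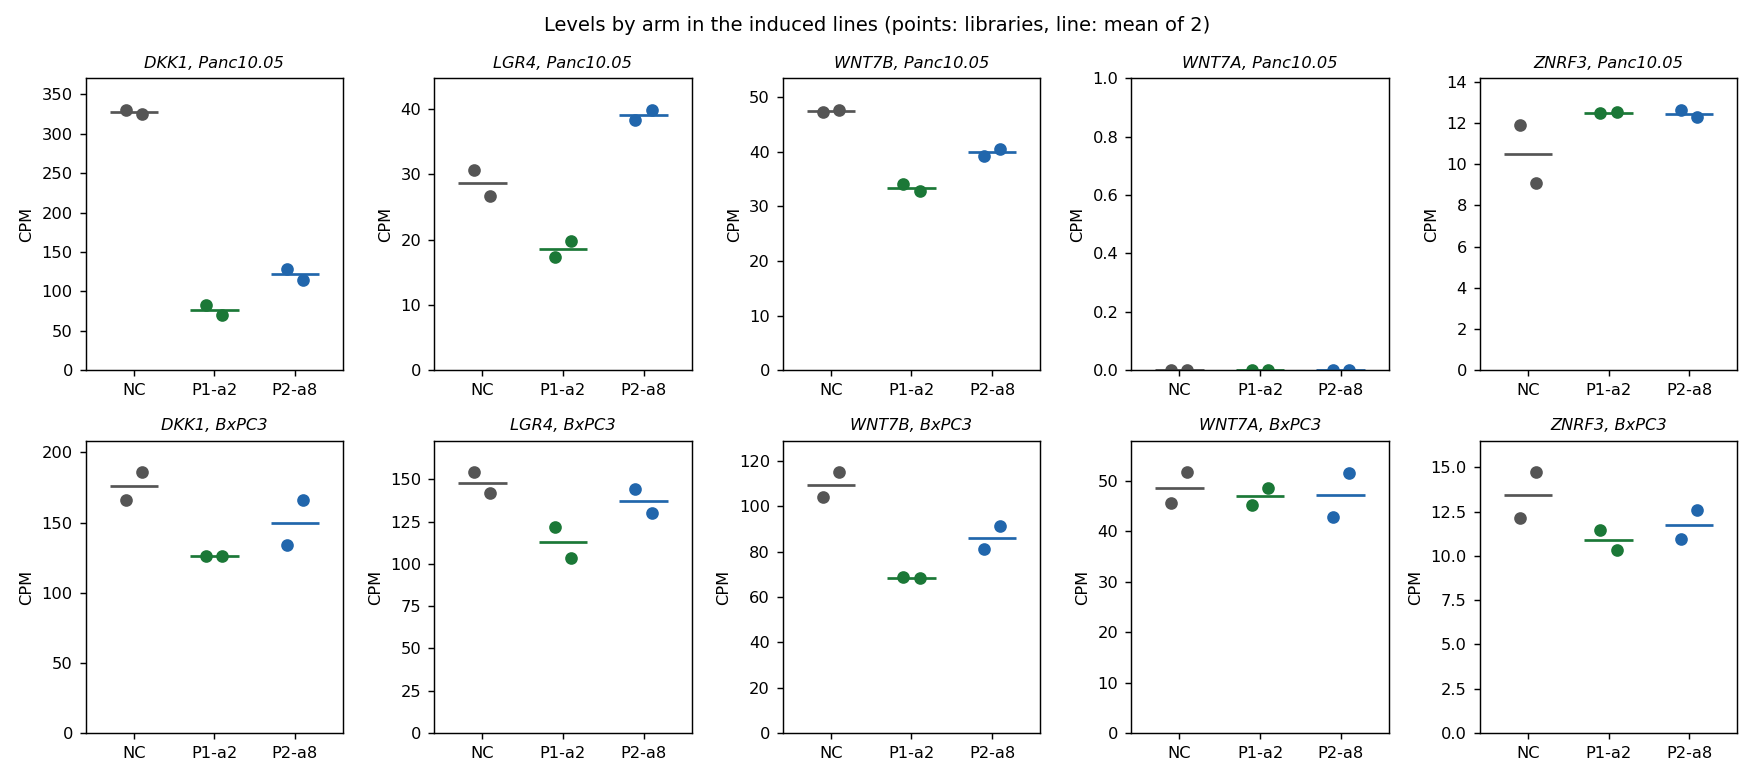
CPM of DKK1, LGR4, WNT7B, WNT7A and ZNRF3 in each library (points) of Panc10.05 and BxPC3 by arm. DKK1 in Panc10.05 falls from 324.5 CPM or more in NC to 82.6 or less under P1-a2, and LGR4 is lowest under P1-a2 in both lines.

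LGR4 (ENSG00000205213, chr11:27365961-27472775, minus strand), a receptor for R-spondins with broad expression, separated the isoforms in Panc10.05. It was at 30.6 and 26.8 CPM in NC, 17.4 and 19.7 under P1-a2, and 38.4 and 39.9 under P2-a8, so P1-a2 cells were lowest and P2-a8 cells highest with no overlap. Against NC the log2 fold change was -0.63 for P1-a2 (SE 0.086, adjusted p 2.97e-08) and 0.45 for P2-a8 (SE 0.082, adjusted p 1.63e-05). P1-a2 was below P2-a8 by -1.07 (SE 0.084, adjusted p 4.52e-14), with dose and HNF4A level changing along with the isoform. In BxPC3, LGR4 was at 154.2 and 141.8 CPM in NC, 121.8 and 103.8 under P1-a2, and 144.2 and 130.2 under P2-a8. Only P1-a2 stood below both other arms, by -0.39 against NC (SE 0.083, adjusted p 0.0046) and -0.28 against P2-a8 (SE 0.083, adjusted p 0.0334), while P2-a8 against NC gave -0.11 (adjusted p 0.529). The difference between isoforms in BxPC3 was not past the threshold without P2-a8 replicate 1 (adjusted p 0.22), without P1-a2 replicate 2 (adjusted p 0.248) or without TMM scaling (adjusted p 0.0501).

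In ASPC1 the LGR4 level ran from 222.4 to 337.4 CPM, and sgNC (279.9 and 312.5) lay inside that range. The log2 fold changes against sgNC were -0.08 with sgP1, -0.02 with sgP2 and -0.02 with sgDual, none past the threshold. LGR4 nevertheless separated the sgP1 guides: sgP1E was at 320.8 and 337.4 CPM and sgP1J at 242.2 and 222.4, a log2 difference of 0.50 (SE 0.086, adjusted p 0.00173). With sgP1J alone as the sgP1 arm, sgP2 was above sgP1 by 0.34 (adjusted p 0.0214).

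LGR5 (ENSG00000139292, chr12:71439770-71586310, plus strand), a receptor for R-spondins that marks stem cells of the intestinal crypt, could be tested in ASPC1 and had at most 2 counts in any library of the other lines. It was at 35.6 and 46.7 CPM with sgNC, 65.9 and 93.3 with sgP1E, and 54.9 and 74.0 with sgP1J. The sgP2 guides gave 27.3 and 42.9 CPM (sgP2D) and 23.1 and 30.0 (sgP2G), and the sgDual guides 105.9 and 115.2 (sgDual2) and 99.5 and 109.2 (sgDual3). Every sgDual library was above every other library of the line, every sgP1 library was above both sgNC libraries, and sgP2 overlapped sgNC. LGR5 rose with sgDual by 1.38 on the log2 scale against sgNC (SE 0.24, adjusted p 0.000785) and by 1.80 against sgP2 (SE 0.19, adjusted p 8.74e-06).

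With sgP1 against sgNC the LGR5 log2 fold change was 0.81 (SE 0.23), which did not pass (adjusted p 0.241), and it did with the replicate number as a block (0.80, adjusted p 0.0365). sgP2 was lower than sgP1 by -1.22 (SE 0.19, adjusted p 0.00378), whereas sgP2 against sgNC gave -0.42 (adjusted p 0.375). LGR5 was higher with sgDual than with sgP1 by 0.58 (SE 0.18, adjusted p 0.0247). That call was lost without sgP1E replicate 1 (adjusted p 0.0601), sgP1J replicate 1 (0.0694), sgDual2 replicate 2 (0.0594) or sgDual3 replicate 2 (0.0518), and without any of the guides sgP1J, sgDual2 and sgDual3 (adjusted p up to 0.152). It was also lost without a filter on low counts (adjusted p 0.0877). TSPAN8, a membrane protein gene on the opposite strand, overlaps LGR5 by 2129 bases, none of them in exons of both. It was at 466 to 619 CPM with sgNC and 818 to 1040 CPM with sgDual (log2 fold change 0.75, adjusted p 0.0133), and its part in the LGR5 values was not tested.

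**Figure D3:**
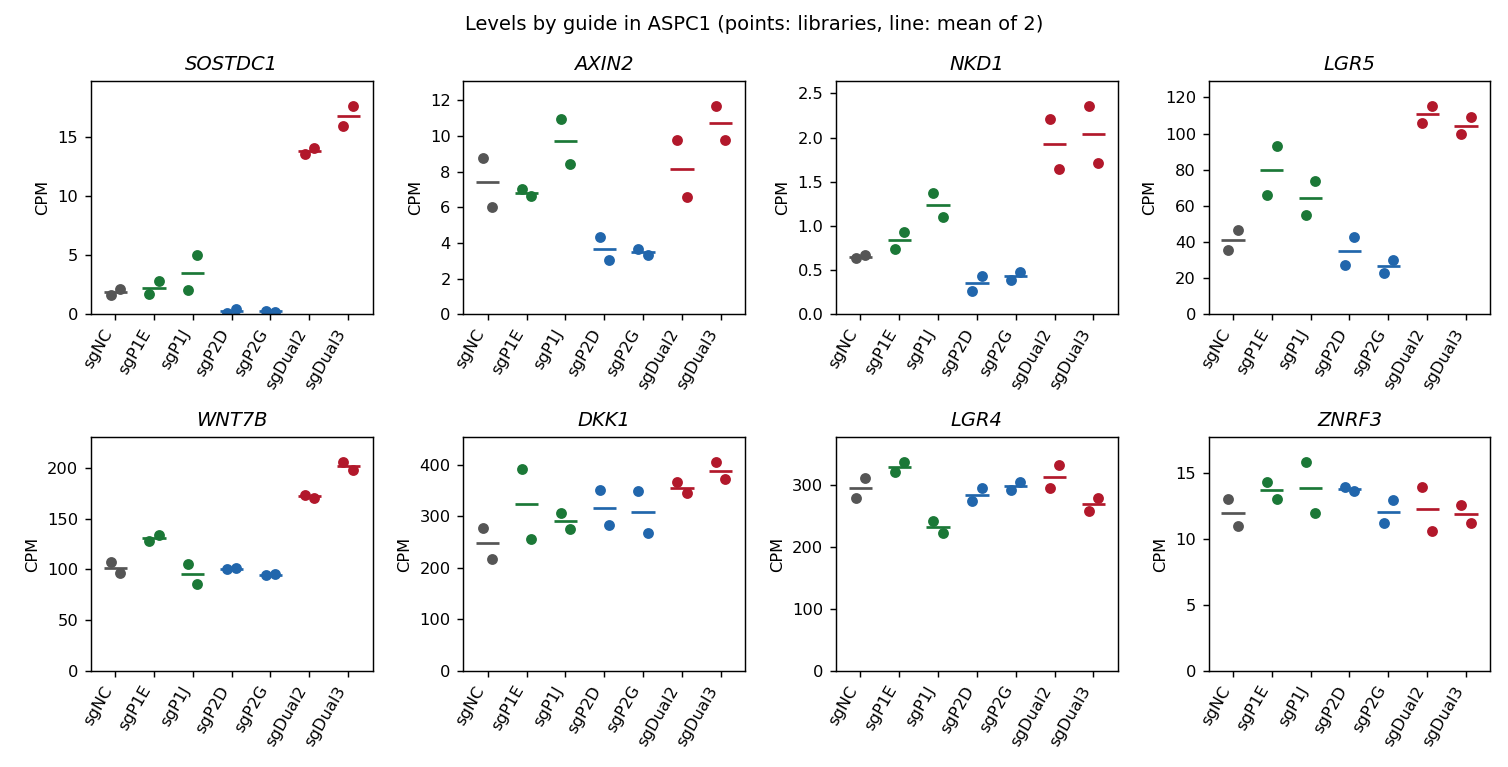
CPM of the 8 tested genes in each ASPC1 library (points) by guide, on an axis of its own for each gene. SOSTDC1 spans 0.155 CPM with sgP2D to 17.6 CPM with sgDual3, and LGR4 stays between 222.4 and 337.4 CPM.

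DKK1 (ENSG00000107984, chr10:52314296-52318042, plus strand) encodes a secreted protein that binds LRP co-receptors and blocks Wnt signalling. It had the largest change of the set in Panc10.05. Its level was 330.4 and 324.5 CPM in NC, 82.6 and 70.2 under P1-a2, and 128.6 and 114.4 under P2-a8. The groups did not overlap, and P1-a2 was lowest. Against NC the log2 fold change was -2.10 for P1-a2 (SE 0.070, adjusted p 1e-23), which left 0.233 of the control level, and -1.43 for P2-a8 (SE 0.068, adjusted p 1.3e-18). P1-a2 was below P2-a8 by -0.67 (SE 0.069, adjusted p 5.6e-10).

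In BxPC3, DKK1 was at 166 and 185.8 CPM in NC, 126.1 and 126.4 under P1-a2, and 133.7 and 166.3 under P2-a8. P1-a2 was below both other arms, and P2-a8 reached the lower NC library. The log2 fold change was -0.48 for P1-a2 (SE 0.097, adjusted p 0.0046) and -0.23 for P2-a8 (adjusted p 0.217), and -0.25 between the isoforms (adjusted p 0.0999). With the replicate block the last pair passed, at -0.23 (adjusted p 0.00866) and -0.24 (adjusted p 0.00329). In ASPC1 the DKK1 level was 277.5 and 217 CPM with sgNC, 256.4 to 391 with sgP1, 267.4 to 351 with sgP2 and 344.3 to 405 with sgDual. All sgDual libraries were above both sgNC libraries but not above all sgP1 libraries. DKK1 rose with sgDual against sgNC by 0.59 (SE 0.16, adjusted p 0.0117), a call lost without sgNC replicate 2 (adjusted p 0.139) or without guide sgDual3 (adjusted p 0.0631). Against sgP1 and sgP2 the log2 fold change of DKK1 with sgDual was 0.27 (adjusted p 0.112) and 0.25 (adjusted p 0.13), and with the replicate block 0.29 (adjusted p 0.00884) and 0.26 (adjusted p 0.0125). PRKG1-AS1, a gene on the opposite strand that shares 212 exon bases with DKK1, had at most 6.42 CPM in any library.

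SOSTDC1 (ENSG00000171243, chr7:16461481-16530580, minus strand) encodes a secreted antagonist of Wnt and BMP signalling and had the widest range of the set in ASPC1. It was at 1.68 and 2.18 CPM with sgNC, 1.72 and 2.80 with sgP1E, and 2.04 and 5.003 with sgP1J. With sgP2 it was at 0.155 and 0.463 CPM (sgP2D) and 0.330 and 0.223 (sgP2G), and with sgDual at 13.6 and 14.04 (sgDual2) and 15.9 and 17.6 (sgDual3). The sgP2 libraries were thus below, and the sgDual libraries above, every other library of the line. With sgP2, SOSTDC1 had only 4 to 15 counts per library, so the size of any fold change that involves sgP2 rests on few counts. The log2 fold change with sgDual was 2.98 against sgNC (SE 0.38, adjusted p 6.31e-05, 7.90-fold), 2.42 against sgP1 (SE 0.27, adjusted p 2.08e-05) and 5.66 against sgP2 (SE 0.36, adjusted p 7.77e-08, 50.5-fold). SOSTDC1 fell with sgP2, to a log2 fold change of -2.68 against sgNC (SE 0.45, adjusted p 0.00709) and -3.24 against sgP1 (SE 0.38, adjusted p 0.000546). The call of sgP2 against sgNC was lost without sgNC replicate 1 (adjusted p 0.0513), without sgNC replicate 2 (adjusted p 0.102) or without guide sgP2G (adjusted p 0.0605). With sgP1 against sgNC it was 0.56 (adjusted p 0.729). In BxPC3 SOSTDC1 had 6 and 4 counts in NC, 2 and 0 under P1-a2 and 5 and 1 under P2-a8. Too few libraries of BxPC3 had enough counts of SOSTDC1 to pass the filter. Panc10.05 had 0 counts in every library.

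AXIN2 (ENSG00000168646, chr17:65528563-65561647, minus strand), a scaffold of the destruction complex and a widely used readout of beta-catenin activity, was lower with sgP2 than with any other guide. It was at 8.74 and 6.04 CPM with sgNC, 7.001 and 6.65 with sgP1E, and 10.95 and 8.43 with sgP1J. With sgP2 it was at 4.33 and 3.06 CPM (sgP2D) and 3.66 and 3.34 (sgP2G), and with sgDual at 9.79 and 6.56 (sgDual2) and 11.7 and 9.77 (sgDual3). The sgP2 libraries lay below all others, while sgDual overlapped sgNC and sgP1. AXIN2 differed by -1.04 with sgP2 against sgNC (SE 0.24, adjusted p 0.0281), by -1.20 with sgP2 against sgP1 (SE 0.20, adjusted p 0.00411) and by 1.40 with sgDual against sgP2 (SE 0.20, adjusted p 5.95e-05). With sgDual against sgNC it was 0.35 (adjusted p 0.272).

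The AXIN2 call of sgP2 against sgNC was fragile. Its adjusted p was 0.328 without sgNC replicate 1 (log2 fold change -0.76), 0.0773 without sgNC replicate 2, between 0.0599 and 0.0623 without sgP2G replicate 1, sgP2G replicate 2 or sgP2D replicate 2, and 0.0913 and 0.133 without guide sgP2D or sgP2G. Panc10.05 had 3 to 12 counts of AXIN2 per library and BxPC3 1 to 8, too few to test.

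NKD1 (ENSG00000140807, chr16:50548330-50649249, plus strand), which binds Dishevelled and is induced by the pathway it inhibits, followed a similar order at lower levels. In ASPC1 it was at 0.634 and 0.674 CPM with sgNC, 0.741 to 1.37 with sgP1, 0.271 to 0.478 with sgP2 and 1.65 to 2.36 with sgDual. The 4 targets did not overlap, with sgP2 lowest, then sgNC, sgP1 and sgDual. With sgP2, NKD1 had only 7 to 15 counts per library. NKD1 rose with sgDual by 1.59 on the log2 scale against sgNC (SE 0.28, adjusted p 0.000516), 0.95 against sgP1 (SE 0.20, adjusted p 0.00196) and 2.31 against sgP2 (SE 0.23, adjusted p 2.12e-06). NKD1 was lower with sgP2 than with sgP1 by -1.36 (SE 0.25, adjusted p 0.0064), a call lost without guide sgP2D (adjusted p 0.0639). Against sgNC neither sgP1 (0.65, adjusted p 0.53) nor sgP2 (-0.72, adjusted p 0.246) passed. In Panc10.05 NKD1 had 17 and 18 counts in NC and 6 to 13 in the other arms (-1.02 for P1-a2, adjusted p 0.0786, and -0.91 for P2-a8, adjusted p 0.143). Without P1-a2 replicate 1 the first of these was -1.79 (adjusted p 0.033). BxPC3 had 3 to 9 counts.

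ZNRF3 (ENSG00000183579, chr22:28883592-29057487, plus strand), a ubiquitin ligase that removes Frizzled receptors from the cell surface, varied least of the 4 genes that could be tested in all lines. Its level was between 9.07 and 12.7 CPM in Panc10.05, 10.3 and 14.7 in BxPC3 and 10.6 and 15.8 in ASPC1, and it was called in no comparison between arms. In Panc10.05 NC was at 11.9 and 9.07 CPM, below both P1-a2 libraries (12.5 each) and both P2-a8 libraries (12.7 and 12.3). This gave 0.25 for P1-a2 (SE 0.11, adjusted p 0.0521) and 0.24 for P2-a8 (SE 0.11, adjusted p 0.0716). Without NC replicate 1 these became 0.45 (adjusted p 0.0032) and 0.47 (adjusted p 0.00361). BxPC3 gave -0.31 under P1-a2 (SE 0.13, adjusted p 0.093), with both P1-a2 libraries (11.5 and 10.3 CPM) below those of NC (12.1 and 14.7), and the replicate block brought the adjusted p to 0.0384.

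ASCL2 (ENSG00000183734, chr11:2268495-2270952, minus strand), a transcription factor of intestinal stem cells, was read in BxPC3. It was at 4.87 and 5.52 CPM in NC, 4.27 and 3.22 under P1-a2, and 4.18 and 5.48 under P2-a8. P1-a2 lay below NC but overlapped P2-a8. The log2 fold change of ASCL2 was -0.48 for P1-a2 against NC (SE 0.20, adjusted p 0.0846) and -0.11 for P2-a8 (adjusted p 0.814), and the replicate block gave -0.48 (adjusted p 0.0413) for P1-a2. Panc10.05 and ASPC1 had at most 2 counts.

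Guides against the same target were compared next, since each sgRNA was sequenced in 2 libraries. Between sgP1E and sgP1J, 2 of 8 genes differed, LGR4 and WNT7B, both higher with sgP1E, beside 14.5% of all genes. With the replicate block it was 4, with AXIN2 lower with sgP1E (-0.51, adjusted p 0.00449) and LGR5 higher (0.30, adjusted p 0.0367). The share of all genes called with the block was not computed. Between sgP2D and sgP2G edgeR called 0 of 8 (1.69% of all genes), with 0 at an unadjusted p under 0.05 and 0 by DESeq2. Between sgDual2 and sgDual3 it also called 0 of 8 (0.883% of all genes), with 0 by DESeq2 and 2 at an unadjusted p under 0.05, LGR4 (0.22) and WNT7B (-0.23). Of 73 tested genes of the wider pathway list described further on, 19 differed between the sgP1 guides, 5 between the sgP2 guides and 2 between the sgDual guides. The sgP1 arm is therefore a mean over guides that differ in more genes than those of either other target.

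The responses of Panc10.05 and BxPC3 were compared through the interaction term of a model over all 12 libraries, given as the log2 change in Panc10.05 minus that in BxPC3. The joint filter kept 7 of the 10 genes, but WNT7A and ASCL2 passed it through BxPC3 and had at most 2 counts per library in Panc10.05. Their contrasts cannot be read and they are left out of the counts. NKD1 stays among the other 5, though it had 3 to 9 counts per library in BxPC3, too few to test in that line. Its contrasts (SE 0.91 to 0.93) say little, and none passed. For P1-a2 against NC, 2 of the other 5 genes differed between the lines, beside 36.4% of all 19372 genes. DKK1 changed more in Panc10.05 by -1.61 (SE 0.15, adjusted p 1.99e-06), and ZNRF3 differed by 0.57 (SE 0.18, adjusted p 0.0182). For P2-a8 against NC, 2 of 5 differed (23.5% of all genes), LGR4 by 0.55 (SE 0.12, adjusted p 0.00172) and DKK1 by -1.20 (SE 0.15, adjusted p 6.85e-05). For P1-a2 against P2-a8 it was 1 of 5 (22.3% of all genes), LGR4 by -0.78 (SE 0.12, adjusted p 8.84e-05). WNT7B differed between the lines by 0.18 for P1-a2 (adjusted p 0.166), 0.10 for P2-a8 and 0.09 between the isoforms, none past the threshold. Line, dose, control construct and count table change together here and cannot be told apart. The ZNRF3 difference was lost without Panc10.05 NC replicate 2 (adjusted p 0.144), BxPC3 P1-a2 replicate 2 (adjusted p 0.0702) or BxPC3 NC replicate 2 (adjusted p 0.143).

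A wider list of 107 further Wnt pathway genes, also chosen with earlier results of these data known, was read alongside. In ASPC1, 73 of them were tested, and 33 were called with sgDual against sgNC, 21 higher and 12 lower, against 35.6% of all genes. Of 9 tested ligands, 3 were higher and 4 lower, and of 15 receptors and co-receptors, 6 were higher and 1 lower. Over all genes, 17.8% were higher and 17.8% lower. The sgDual count was 17 without sgNC replicate 1. TNFRSF19, a receptor of the TNF family that is a known Wnt target, was at 7.92 and 9.31 CPM with sgNC and between 18.9 and 25.2 CPM with sgDual (log2 fold change 1.34, SE 0.16, adjusted p 2.77e-05). TLE2, a co-repressor that binds TCF factors, was higher by 2.04 (adjusted p 0.0277) and the receptor FZD2 by 1.998 (adjusted p 0.0117). TLE2 was at 17.3 to 18.1 CPM in the sgDual libraries and at 3.64 and 4.95 CPM in sgNC, but sgP1E (19.9 and 24.2 CPM) was as high as sgDual while sgP1J (4.35 and 5.04 CPM) was at the control level. TRABD2A, a protease that inactivates Wnt proteins, was lower by -1.45 (adjusted p 0.0113), TCF7L1, a repressive member of the TCF family, by -1.20 (adjusted p 0.00027) and KREMEN2, a receptor for DKK proteins, by -1.157 (adjusted p 0.0179). The calls of TLE2, TRABD2A, KREMEN2 and FZD2 were each lost when an sgNC library was left out.

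The share of all genes called was computed for the main test only. There, sgP2 against sgNC gave 7 of 73 called, 3 higher and 4 lower, beside 3.42% of all genes. That count was 0 without sgNC replicate 1, 0 without sgNC replicate 2 and 3 without guide sgP2G, 13 with the replicate block, 14 by DESeq2 and 20 with 7 groups by guide. RNF43, which like ZNRF3 removes Frizzled receptors, was at 5.58 and 6.04 CPM with sgNC, between 2.34 and 2.99 with sgP2 and between 6.44 and 8.75 with sgDual. It was lower with sgP2 than with sgNC by -1.10 (SE 0.21, adjusted p 0.0105). The ligand WNT11 was at 1.49 and 2.02 CPM with sgNC and between 0.425 and 1.11 with sgP2 (-1.20, adjusted p 0.0476), and LGR6, the third R-spondin receptor of the family, was lower by -0.51 (adjusted p 0.00675). KREMEN1, a receptor for DKK proteins, was higher by 1.51 (adjusted p 0.00375), the receptor FZD3 by 0.76 (adjusted p 0.0165) and the kinase CSNK1E by 0.30 (adjusted p 0.0351). As in SOSTDC1, AXIN2 and NKD1, the mean levels of RNF43 and WNT11 were lowest with sgP2 and highest with sgDual, though here sgP1 was on average below sgNC and not above it. sgDual was above sgP2 by 1.44 (adjusted p 1.12e-05) and 2.11 (adjusted p 1.02e-05). With sgP1 against sgNC, edgeR and DESeq2 each called 0 of 73, and 17 had an unadjusted p under 0.05 in edgeR.

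Between targets, sgP2 against sgP1 gave 9 called (3 higher, 6 lower, beside 4.30% of all genes), sgDual against sgP1 gave 41 (26 higher, 15 lower, beside 38.3%) and sgDual against sgP2 gave 50 (26 higher, 24 lower, beside 46.4%). In the first of these WNT16, a ligand, was lower by -1.21 (adjusted p 0.00422) and the receptor kinase gene EPHB2 higher by 0.66 (adjusted p 0.0209). With sgDual against sgP1, the ion carrier SLC12A2 was higher by 0.83 (adjusted p 6.22e-07) and the ligand WNT10B lower by -1.03 (adjusted p 4.98e-05). The 4 genes of the R-spondin family on the list were too low to test in every line.

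**Figure D4:**
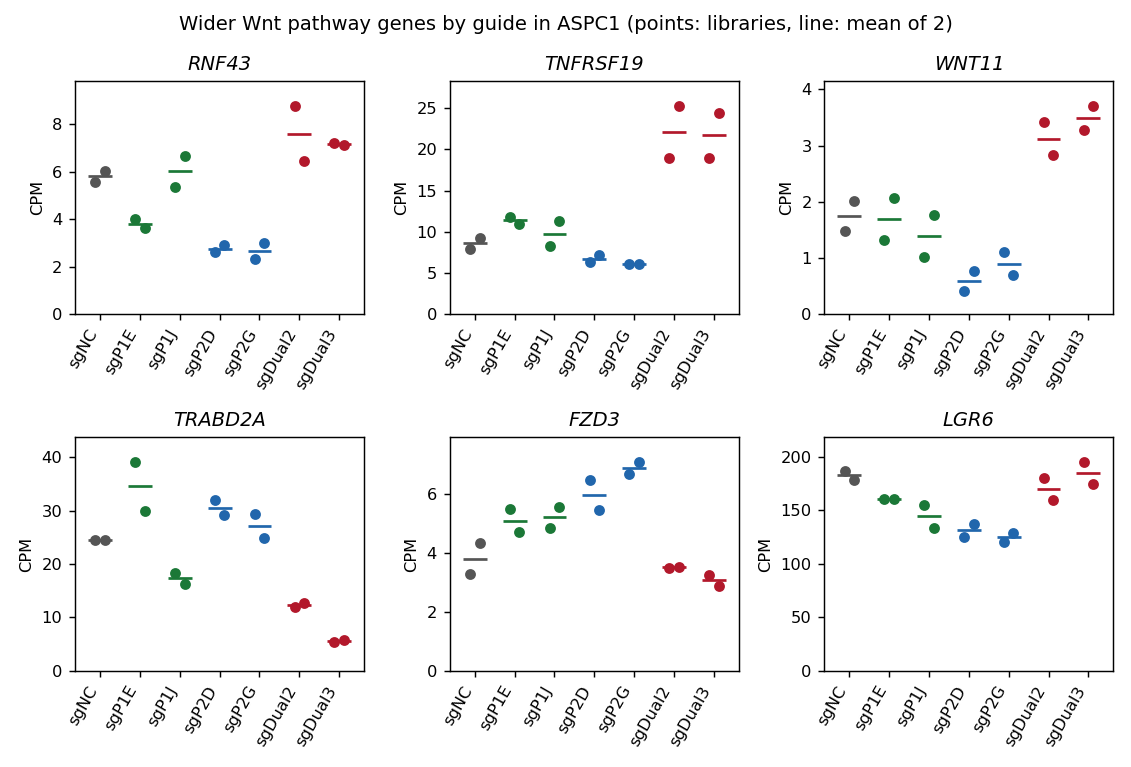
CPM of RNF43, TNFRSF19, WNT11, TRABD2A, FZD3 and LGR6 in each ASPC1 library (points) by guide. RNF43 stays at 2.99 CPM or less with sgP2, and TNFRSF19 at 18.9 CPM or more with sgDual.

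In Panc10.05, 64 genes of the wider list were tested. P1-a2 against NC gave 44 called, 16 higher and 28 lower, beside 62.0% of all genes (31.5% higher, 30.5% lower). Of 14 receptors and co-receptors, 10 were lower and none higher (median -0.69 against 0.02 over all tested genes). Calls were also many among antagonists (2 higher and 4 lower of 6) and targets and stem cell genes (3 higher and 6 lower of 11). Cytoplasmic transducers were split, with 7 higher and 5 lower of 17. Of 9 nuclear factors 3 were called, and of 5 ligands 2. P2-a8 against NC gave 38 (17 higher, 21 lower, beside 46.2% of all genes) and P1-a2 against P2-a8 also 38 (10 higher, 28 lower, beside 46.9%). EPHB3, an ephrin receptor and Wnt target of the intestinal crypt, was at 14.3 and 14.8 CPM in NC, 3.90 and 3.61 under P1-a2, and 11.1 and 13.2 under P2-a8. It was lower under P1-a2 than in NC by -1.95 (SE 0.12, adjusted p 1.07e-17) and than under P2-a8 by -1.69 (SE 0.12, adjusted p 6.87e-15). RNF43 was at 1.90 and 1.87 CPM under P1-a2 and at 4.27 and 4.90 under P2-a8 (-1.28, adjusted p 6.41e-08). APC2, a relative of the destruction complex protein APC, was lower under P1-a2 than in NC by -2.53 (adjusted p 5.79e-11), and SP5, a repressor induced by Wnt signals, by -1.54 (adjusted p 2.69e-05). DKK3, a relative of DKK1, was higher by 2.12 (adjusted p 4.1e-11), from 0.865 and 1.159 CPM in NC to 4.83 and 3.91 under P1-a2. The ligand WNT10A was higher by 1.73 under P1-a2 (adjusted p 1.51e-06) and 2.03 under P2-a8 (adjusted p 7.67e-08), and the receptor FZD7 was lower under P2-a8 by -0.88 (adjusted p 1.24e-09). MYC was higher under P1-a2 than under P2-a8 by 0.74 (adjusted p 4.84e-14), at 298.9 and 294.8 against 177.3 and 178.6 CPM.

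In BxPC3, 74 genes of the wider list were tested, and 33 were called for P1-a2 against NC (13 higher, 20 lower, beside 32.0% of all genes), 8 for P2-a8 against NC (5 higher, 3 lower, beside 6.99%) and 22 for P1-a2 against P2-a8 (9 higher, 13 lower, beside 22.5%). The P2-a8 count was 3 without P2-a8 replicate 1, NC replicate 1 or NC replicate 2, and 19 with the replicate block. DKK4, a secreted antagonist related to DKK1 and a known Wnt target, was the gene of the list with the largest rise: it was at 0.260 and 0.382 CPM in NC, 5.24 and 6.60 under P1-a2, and 1.37 and 1.29 under P2-a8. Its log2 fold change was 4.15 for P1-a2 against NC (SE 0.28, adjusted p 1.19e-06) and 2.15 against P2-a8 (SE 0.22, adjusted p 9.03e-05), so DKK4 rose in cells in which DKK1 fell. DKK4 was at 0 CPM in 5 of 6 Panc10.05 libraries. WNT10A, higher under both isoforms in Panc10.05, was lower under P1-a2 in BxPC3, at 44.7 and 51.0 CPM in NC and 25.3 and 23.6 under P1-a2 (-0.97, adjusted p 0.00115). Under P2-a8 it was at 39.9 and 54.3 CPM in BxPC3, which spans NC (-0.03, adjusted p 0.944). The ligand WNT4 (-1.30, adjusted p 0.00234) and the inhibitor APCDD1 (-1.48, adjusted p 0.00109) were also lower, and the co-repressor TLE4 (0.88, adjusted p 9.21e-05) and the ligand WNT3 (0.69, adjusted p 0.00385) higher. Between the isoforms the receptors FZD8 (0.73, adjusted p 0.00154) and FZD4 (0.42, adjusted p 0.00731) were higher under P1-a2. CTNNB1, which encodes beta-catenin, was higher under P2-a8 than in NC by 0.24 (adjusted p 0.0247).

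For LGR4, DKK1 and ZNRF3, which were tested in all 3 lines, the genes with the most similar pattern over 13 groups were sought among 13428 genes, by the root-mean-square difference of log2 levels centred within each line. LGR4, whose own log2 range was 1.07 and root-mean-square 0.252, was nearest to MAML2 (0.0622) and DAG1 (0.113). DKK1, with a range of 2.10 and root-mean-square of 0.455, was nearest to PRR15-DT (0.138) and NHERF2 (0.142). ZNRF3 varied little (range 0.334, root-mean-square 0.109) and was nearest to UPF2 (0.0646) and COX6C (0.0700). By this measure a gene that varies little is near other such genes whatever their pattern, so these neighbours do not show a shared one.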

How the data were processed

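Poly(A) RNA-seq libraries of 3 cell lines were analysed from 1 table per line of raw counts, deposited by the authors. Per the submitters' processing notes, cutadapt 1.16, STAR 2.7.9a, featureCounts 1.6.3, DESeq2 1.36.0 and GRCh38 were used; their roles, the annotation release and the strand setting are not given in the sources used here, so reads of genes that overlap on opposite strands may not have been separated. Libraries were grouped by genotype label, with guide and replicate number from the title.

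Per line, genes were kept with edgeR's filterByExpr, scaled by TMM and compared by its robust quasi-likelihood F test, the groups of a line sharing the spread, with Benjamini-Hochberg adjustment over all tested genes and a threshold of 0.05. The standard error is the absolute log2 fold change over the square root of F. Guides were compared in a fit with 7 groups. Lines were compared by interaction contrasts in a joint fit of Panc10.05 and BxPC3. Scripts were tested on simulated data. Alternatives were DESeq2, other filters and scaling, fewer libraries, a fold limit of 1 on the log2 scale, a replicate block, and each library or guide left out. Replicates differed by more than sampling noise (chi-square per degree of freedom 5.08 to 24.07). The tests ran in R 4.3.3 with DESeq2 1.42.0, limma 3.58.1 and edgeR 4.0.16, and the sequence search and plots in Python 3.11.15 with matplotlib 3.10.9, pandas 2.3.3 and numpy 2.4.6.

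The 10 genes and the wider list were chosen with earlier results of these data known, and the motifs other than the longer TCF/LEF core and the exact HNF4 core were added after the data were seen. Of the wider list, the rule named up to 3 genes per direction and comparison with the largest change among called genes with a mean of at least 1 CPM; not all of these are printed. EPHB3, RNF43, TLE2, MYC and others are given per library where their values help. Symbols matched 99.88% of identifiers in Panc10.05 and BxPC3 and 99.91% in ASPC1. Positions are from GENCODE v29 on GRCh38.

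Whether equal replicate numbers pair libraries was checked by correlating the deviations from group means across genes. All 3 group pairs of BxPC3 (r 0.174 to 0.312) and all 21 guide pairs of ASPC1 (r 0.183 to 0.58) were above 0.1, so the numbers pair libraries there, as read from the data and not from a label. The main tests had no replicate block, since no label says that a number marks a shared day or batch. In BxPC3 and ASPC1 they thus leave this pairing unused. Results there that did not pass need to be read beside those with the block. None of the 3 pairs of Panc10.05 was (r -0.0259 to 0.021). The genes nearest in pattern to WNT7B are not reported here.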

Additional observations from a re-analysis of the deposited data

Results flagged for a closer look

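In 5 cases the change of a gene differed between Panc10.05 and BxPC3 by the interaction test, as Panc10.05 minus BxPC3 on the log2 scale. For P1-a2 against NC these were DKK1, at -1.61 (adjusted p 1.99e-06), and ZNRF3, at 0.57 (adjusted p 0.0182). ZNRF3 was at 12.5 CPM in both P1-a2 libraries of Panc10.05 against 11.9 and 9.07 in NC, and at 11.5 and 10.3 in BxPC3 against 12.1 and 14.7. The ZNRF3 difference was 0.37 without Panc10.05 NC replicate 2, 0.49 without BxPC3 P1-a2 replicate 2 and 0.40 without BxPC3 NC replicate 2, none past the threshold. For P2-a8 against NC they were LGR4, at 0.55 (adjusted p 0.00172), and DKK1, at -1.20 (adjusted p 6.85e-05). For P1-a2 against P2-a8 it was LGR4, at -0.78 (adjusted p 8.84e-05). The 4 DKK1 and LGR4 differences given here passed under every alternative run. Line, doxycycline dose, control construct and count table cannot be told apart in these contrasts. Dixon's test was run 24 times, for 8 genes in each of the 3 ASPC1 groups of 4 libraries, which are not independent. It found 0 libraries far from the others, where chance flags about 1 in 20. Each group spans both guides of a target, whose differences can mask a deviant library. With 4 libraries only a very large gap is flagged, so the 0 does not show that no library deviated.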

How the results depend on the processing

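No gene of the 10 changed direction in a called result under any alternative run; of their values, 1454 kept their side of the threshold, 35 newly passed it and 30 no longer passed. Apart from a fold limit, the calls of DKK1, LGR4 and WNT7B in Panc10.05 and in BxPC3 P1-a2 against NC, those of SOSTDC1, NKD1, LGR5 and WNT7B with sgDual against sgNC, and all 5 with sgDual against sgP2 held under every alternative run. Counts of called genes moved as follows. The share of all genes called was not computed under these alternatives, so whether it moved along with the counts is not known. With a log2 fold change of at least 1 required, Panc10.05 had 1, 1 and 1 (P1-a2 against NC, P2-a8 against NC, P1-a2 against P2-a8), BxPC3 0, 0 and 0, sgDual against sgNC 3, sgDual against sgP1 1 and sgDual against sgP2 4. With the replicate block, BxPC3 had 5 for P1-a2 and 2 for P2-a8 against NC, sgP1 against sgNC 1 and sgP1E against sgP1J 4. Blocking also added DKK1 to BxPC3 P1-a2 against P2-a8 (3 called) and to sgDual against sgP1 (5) and sgP2 (6). In Panc10.05, where the correlation check saw no pairing by replicate number, the replicate block left 3, 3 and 3. No block was fitted to differences between lines. DESeq2 gave 1 for sgP1 against sgNC. Without a filter, BxPC3 P2-a8 against NC had 2. Without TMM, BxPC3 P1-a2 against P2-a8 had 1. The line difference of P1-a2 against P2-a8 had 2 with DESeq2 and 2 without TMM, DKK1 being added. Without guide sgP1J, sgP1 against sgNC had 1. Without guide sgP2D, sgP2 against sgNC had 1, and without sgP2G it had 0.

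Leaving out each library in turn gave 3 to 4, 3 to 4 and 3 to 3 called genes in Panc10.05, and 3 to 3, 0 to 2 and 1 to 2 in BxPC3. In ASPC1 it gave 0 to 0 (sgP1 against sgNC), 0 to 2 (sgP2 against sgNC), 4 to 5 (sgDual against sgNC), 4 to 4 (sgP2 against sgP1), 3 to 4 (sgDual against sgP1) and 5 to 5 (sgDual against sgP2). Leaving out each guide in turn gave, in that order, 0 to 1, 0 to 1, 4 to 5, 3 to 5, 3 to 6 and 5 to 5. Leaving out libraries of the guide and line comparisons was added after seeing the data. It gave 2 to 3 for sgP1E against sgP1J, 0 to 0 for the other guides, and 1 to 2, 2 to 3 and 1 to 2 for the line differences. Arms left with a lone library were assumed to vary like the other groups. The causes were not tested. With 2 libraries per group in the induced lines and 2 in sgNC, small changes against a control rest on single libraries, and genes under about 10 counts could not be tested.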
